A study of Mus musculus with 2 samples.

Results

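Ifitm1, Ifitm2, Ifitm3 and Ifitm6, 4 of the 32285 genes counted in CD45+ immune cells of mouse liver tumors, were followed across 6 marker-gated cell types and 2 libraries. The members were chosen by their levels and ratios between libraries in earlier results of these data, so levels and differences between libraries are a description and carry no test. Tumors were induced in male wild-type C57BL/6J mice of 6 to 8 weeks by hydrodynamic tail vein injection of plasmids for human MYC and a guide RNA against Trp53, with Sleeping Beauty transposase, which makes hepatocyte tumors in a host with an intact immune system. All mice received lenvatinib, a multikinase inhibitor, from 12 days after the injection at 30 mg/kg for 25 days, and the tumors are labelled lenvatinib-resistant. The lenvatinib library came from tumors kept on lenvatinib, and the combo library from tumors given lenvatinib with palbociclib, a CDK4/6 inhibitor, at 100 mg/kg. Each treatment was 1 library of sorted live CD45+ cells, and the number of mice behind a library is not given in the sources used here. Treatment and library therefore cannot be told apart, no test between treatments was possible, and every interval below covers counting error only.

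Ifitm proteins are small proteins that sit in the plasma membrane and in endosomes, where they hinder the fusion of viral envelopes with cell membranes. Many are induced by interferon, through interferon-stimulated response elements (ISRE) and gamma-activated sites (GAS). Ifitm3 acts mainly in late endosomes, Ifitm1 mainly at the cell surface, and Ifitm2 is a close relative of Ifitm3. Ifitm6 is a rodent member known from myeloid cells. Of the rest of the family, Ifitm5 is a bone gene of osteoblasts, and Ifitm7 and Ifitm10 have roles that are less well described.

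In mm10, the members lie in 1 cluster on chromosome 7: Ifitm2 at chr7:140954837-140955987 on the minus strand, Ifitm1 at chr7:140967221-140969825 on the plus strand, Ifitm3 at chr7:141009586-141010770 on the minus strand and Ifitm6 at chr7:141015699-141017924 on the minus strand. The stretches just upstream of the RefSeq starts are shown because the interferon motifs near them differ between members. A later comparison sets each member against interferon-stimulated transcripts. They are RefSeq promoter sequences of GRCm38.p6, each cut where the first annotated untranslated base begins. They are read 5′ to 3′ on the strand of the gene, with motif matches in capitals. The Ifitm1 and Ifitm6 stretches lie inside the annotated spans of their genes, because the RefSeq starts used lie within those spans. The positions are chr7:140955988-140956211 for Ifitm2, chr7:140967826-140968027 for Ifitm1, chr7:141010771-141010994 for Ifitm3 and chr7:141016909-141017142 for Ifitm6.
Ifitm2: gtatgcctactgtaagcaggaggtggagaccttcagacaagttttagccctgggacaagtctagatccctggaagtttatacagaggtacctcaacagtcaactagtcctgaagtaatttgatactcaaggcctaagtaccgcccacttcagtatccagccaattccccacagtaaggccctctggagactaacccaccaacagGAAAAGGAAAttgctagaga
Ifitm1: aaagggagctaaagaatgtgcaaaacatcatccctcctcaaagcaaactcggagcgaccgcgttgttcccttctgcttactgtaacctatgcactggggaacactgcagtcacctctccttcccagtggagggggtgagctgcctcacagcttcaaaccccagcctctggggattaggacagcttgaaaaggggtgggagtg
Ifitm3: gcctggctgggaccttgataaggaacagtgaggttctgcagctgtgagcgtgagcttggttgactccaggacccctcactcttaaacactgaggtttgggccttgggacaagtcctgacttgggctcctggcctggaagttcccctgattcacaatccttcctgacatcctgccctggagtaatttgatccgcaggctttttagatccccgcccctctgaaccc
Ifitm6: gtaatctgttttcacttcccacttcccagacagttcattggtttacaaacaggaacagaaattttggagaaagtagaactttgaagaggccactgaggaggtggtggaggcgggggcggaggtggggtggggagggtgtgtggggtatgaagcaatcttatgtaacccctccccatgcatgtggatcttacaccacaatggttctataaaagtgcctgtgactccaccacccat

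Each 300-base promoter window, from 250 bases before to 50 after the RefSeq start, was searched on both strands for the ISRE (GAAA, any 2 bases, GAAA), the GAS (TTCNNNGAA) and a C/EBP motif of myeloid genes (TTGCNNAA). Of 32851 promoters, 3.44% held the ISRE, 8.30% the GAS and 10.8% the C/EBP motif. Ifitm2 held 1 ISRE, starting 46 bases before its RefSeq start, and none of the other motifs. Ifitm3 held 2 ISRE and 1 GAS, all just past its RefSeq start, and the GAS overlapped the second ISRE. Ifitm6 held 1 GAS, starting 10 bases before its RefSeq start. Ifitm1 held none of the 3, which says only that these letters are not in this window, which lies inside the annotated gene. The Ifitm3 and Ifitm6 matches lie in the short windows chr7:141010715-141010744 and chr7:141016883-141016912, both on the minus strand.
Ifitm3 motif window: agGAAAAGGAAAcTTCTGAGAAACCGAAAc
Ifitm6 motif window: ccatatgaacTTCCTTGAAacaagagcttc

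The files held 14509 barcodes with 98107503 UMIs under lenvatinib and 11989 barcodes with 93583402 UMIs under combo. Cells with at most 6000 genes and at most 25% mitochondrial UMIs numbered 14201 and 11613, with medians of 5541 and 5754 UMIs. The libraries shared 49 barcode sequences, 0.409% of the smaller library, and no shared barcode had equal counts. A cell entered a gate when it held at least 1 UMI of exactly 1 of 6 genes: Cd3e (T), Ncr1 (NK), Cd79a (B), Csf1r (monocyte/macrophage), Csf3r (neutrophil) and Flt3 (dendritic). Of the markers listed for each type, all were highest in their own gate for T, NK, B and neutrophil cells in both libraries. Ly6c2 (both libraries) and Ccr2 (lenvatinib) were not highest in the monocyte/macrophage gate, and Cd209a (lenvatinib) and Fscn1 (combo) were not highest in the dendritic gate. The gates held 5173 and 3795 T cells, 2509 and 981 NK cells, 535 and 604 B cells, 192 and 432 monocytes/macrophages, 681 and 1468 neutrophils, and 249 and 217 dendritic cells under lenvatinib and combo. The neutrophil gate thus made up 4.80% of the kept cells under lenvatinib and 12.6% under combo. Cells with UMIs of both Csf1r and Csf3r and of no other gate gene, 212 and 743, entered neither the neutrophil nor the monocyte/macrophage gate.

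Ifitm transcripts were concentrated in the myeloid gates, with the highest level in neutrophils for Ifitm1, Ifitm2 and Ifitm6 and in monocytes/macrophages for Ifitm3. Levels are CPM, the UMIs of a gene summed over the cells of a gate per 1000000 UMIs of that gate, with exact Poisson 95% intervals. A UMI tags 1 molecule at its 3′ end, so levels were not divided by transcript length. Ifitm1 was 1912 CPM in neutrophils, 86.2 in monocytes/macrophages, 41.5 in dendritic cells, 24.8 in B cells, 13.1 in T cells and 12.9 in NK cells under lenvatinib. Under combo the Ifitm1 level was 3429 CPM in neutrophils, 320.8 in dendritic cells, 312.8 in monocytes/macrophages, 83.8 in T cells, 79.8 in B cells and 78.5 in NK cells. In both libraries the neutrophil level of Ifitm1 stood far above the next gate, 22.2-fold under lenvatinib and 10.7-fold under combo. The T and NK intervals overlapped in the first library, and the dendritic and monocyte/macrophage intervals, as well as those of T, B and NK cells, overlapped in the second.

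Ifitm2 was also highest in neutrophils, but with a shallower slope. Its level under lenvatinib was 1688 CPM in neutrophils, 846.1 in monocytes/macrophages, 297.1 in dendritic cells, 28.2 in B cells, 25.4 in T cells and 20.4 in NK cells. Its level under combo was 2643 CPM in neutrophils, 1371 in monocytes/macrophages, 528.6 in dendritic cells, 125.3 in B cells, 114.3 in NK cells and 112.0 in T cells. The 3 myeloid gates were apart from each other and from the lymphocyte gates in both libraries.

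Ifitm3 was the member whose highest gate was monocyte/macrophage. Under lenvatinib its level was 1855 CPM there, 1218 in neutrophils, 658.3 in dendritic cells, 37.5 in B cells, 30.8 in T cells and 28.3 in NK cells. Under combo its level was 2322 CPM in monocytes/macrophages, 1957 in neutrophils, 588.1 in dendritic cells, 117.8 in B cells, 97.0 in NK cells and 81.0 in T cells. The step from monocytes/macrophages to neutrophils was 1.52-fold under lenvatinib and 1.19-fold under combo, with intervals that did not overlap.

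Ifitm6 was highest in neutrophils and the lowest of the members in lymphocytes under lenvatinib. Under lenvatinib its level was 729.5 CPM in neutrophils, 189.1 in monocytes/macrophages, 23.4 in dendritic cells, 5.71 in T cells, 4.73 in NK cells and 3.37 in B cells, the last from 8 UMIs. Under combo its level was 2411 CPM in neutrophils, 463.1 in monocytes/macrophages, 118.7 in B cells, 118.3 in dendritic cells, 89.9 in NK cells and 51.8 in T cells. From highest to lowest gate the level of Ifitm6 spanned 216.6-fold under lenvatinib and 46.5-fold under combo.

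**Figure D1:**
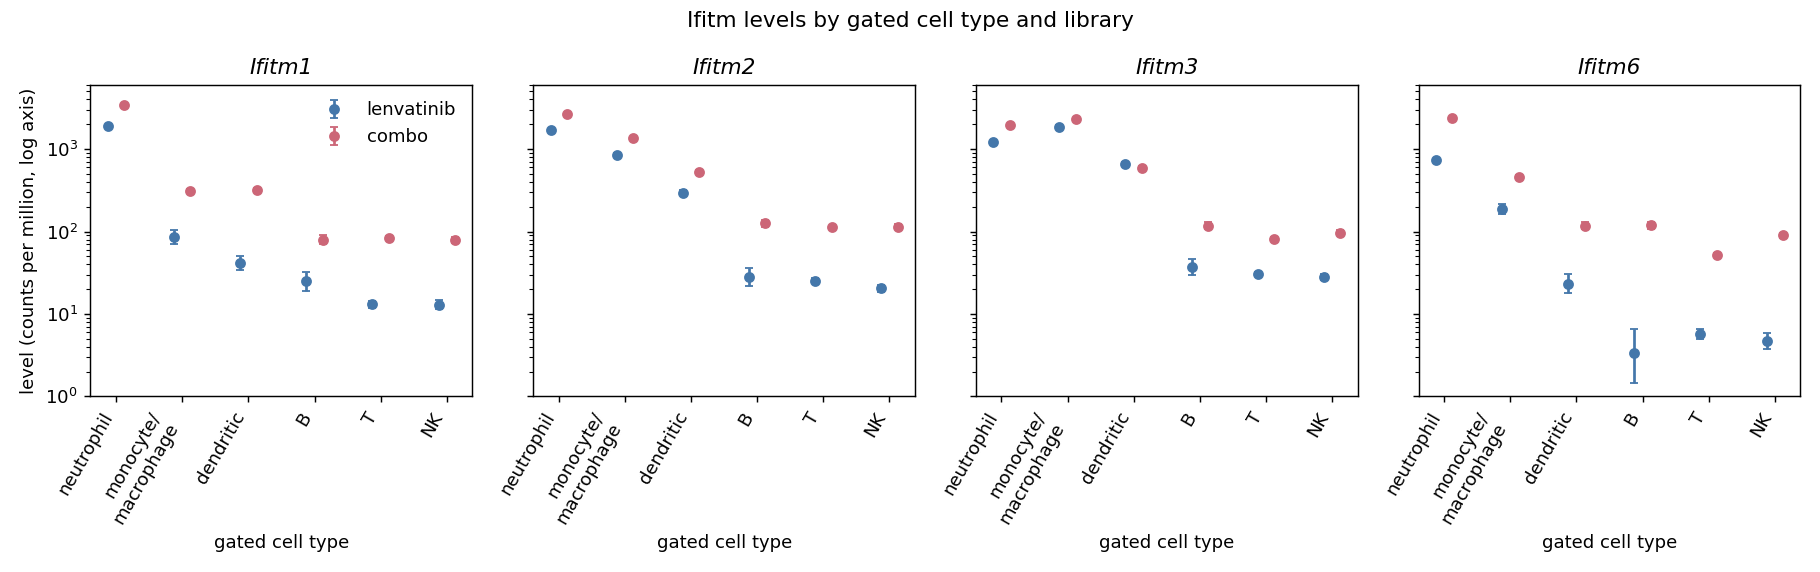
Level of each Ifitm member (CPM, log axis) in each gated cell type (horizontal axis), with 1 point per library and exact Poisson 95% intervals that are often smaller than the point. The combo points lie above the lenvatinib points in every gate for Ifitm1, Ifitm2 and Ifitm6, and Ifitm3 in dendritic cells is the exception at 658.3 CPM under lenvatinib and 588.1 under combo.

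The mix of members differed between gates. Of all member UMIs in neutrophils under lenvatinib, 34.5% were Ifitm1, 30.4% Ifitm2, 22.0% Ifitm3 and 13.2% Ifitm6. In monocytes/macrophages of the same library Ifitm3 made up 62.3% and Ifitm1 2.90%, and in dendritic cells Ifitm3 made up 64.5% and Ifitm1 4.07%. Under combo the neutrophil mix was 32.8%, 25.3%, 18.8% and 23.1% in the same order, with a larger share of Ifitm6. In T cells Ifitm3 was 41.1% of member UMIs under lenvatinib and 24.7% under combo, while Ifitm1 was 17.4% and 25.5% and Ifitm6 7.62% and 15.8%.

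Between the libraries, the members were higher under combo in 23 of 24 combinations of gate and gene, and at least 1.5-fold higher in 22, which counts Ifitm6 in B cells from 8 UMIs under lenvatinib. A ratio is given with the range obtained by setting the interval ends of both libraries against each other. The share of all tested genes that were at least 1.5-fold higher under combo is given beside each count of members, and nothing is read from it because the members were picked with this contrast known.

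In T cells 4 of 4 members were at least 1.5-fold higher under combo, beside 2.19% of 7713 tested genes. The ratio was 6.42 for Ifitm1 (5.61 to 7.35), 4.42 for Ifitm2 (3.98 to 4.90), 2.63 for Ifitm3 (2.37 to 2.92) and 9.08 for Ifitm6 (7.49 to 11.1). In NK cells 4 of 4 members passed the same fold, beside 3.40% of genes. There the ratio was 6.07 for Ifitm1 (4.94 to 7.47), 5.60 for Ifitm2 (4.75 to 6.63), 3.43 for Ifitm3 (2.93 to 4.02) and 19.0 for Ifitm6 (14.3 to 25.4). In B cells 3 of the 3 members that had at least 10 UMIs in each library passed, beside 2.36% of genes. Their ratios were 3.21 for Ifitm1 (2.20 to 4.76), 4.44 for Ifitm2 (3.17 to 6.31) and 3.14 for Ifitm3 (2.31 to 4.32), and Ifitm6, which had too few UMIs to pass the filter, had 8 UMIs under lenvatinib and 397 under combo.

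In neutrophils 4 of 4 members passed, beside 3.88% of genes, each at a smaller ratio than in T and NK cells. The ratio was 1.79 for Ifitm1 (1.72 to 1.87), 1.57 for Ifitm2 (1.5 to 1.64), 1.61 for Ifitm3 (1.53 to 1.69) and 3.31 for Ifitm6 (3.11 to 3.51). At a 2-fold limit 1 member, Ifitm6, was left, Ifitm3 came to 1.47 in cells thinned to 2000 UMIs, and Ifitm2 to 1.42 when the gate asked for 2 UMIs. In monocytes/macrophages 3 of 4 members passed, beside 5.87% of genes, at 3.63 for Ifitm1 (2.80 to 4.75), 1.62 for Ifitm2 (1.48 to 1.78) and 2.45 for Ifitm6 (2.04 to 2.96). Ifitm3 was 1.25 (1.17 to 1.34) in that gate, and Ifitm2 came to 1.21 after thinning. In dendritic cells 3 of 4 members passed, beside 6.07% of genes, at 7.73 for Ifitm1 (5.97 to 10.1), 1.78 for Ifitm2 (1.58 to 2.01) and 5.06 for Ifitm6 (3.52 to 7.39). After thinning, Ifitm2 came to 1.34 in dendritic cells. The dendritic ratio of Ifitm3 was 0.893 (0.812 to 0.983), and it was 1.23 when cells of several gates were kept in each gate they passed. Across all tested genes the median ratio was 0.881 in T cells, 0.910 in NK cells, 0.733 in B cells, 0.878 in monocytes/macrophages, 0.675 in neutrophils and 0.943 in dendritic cells.

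**Figure D2:**
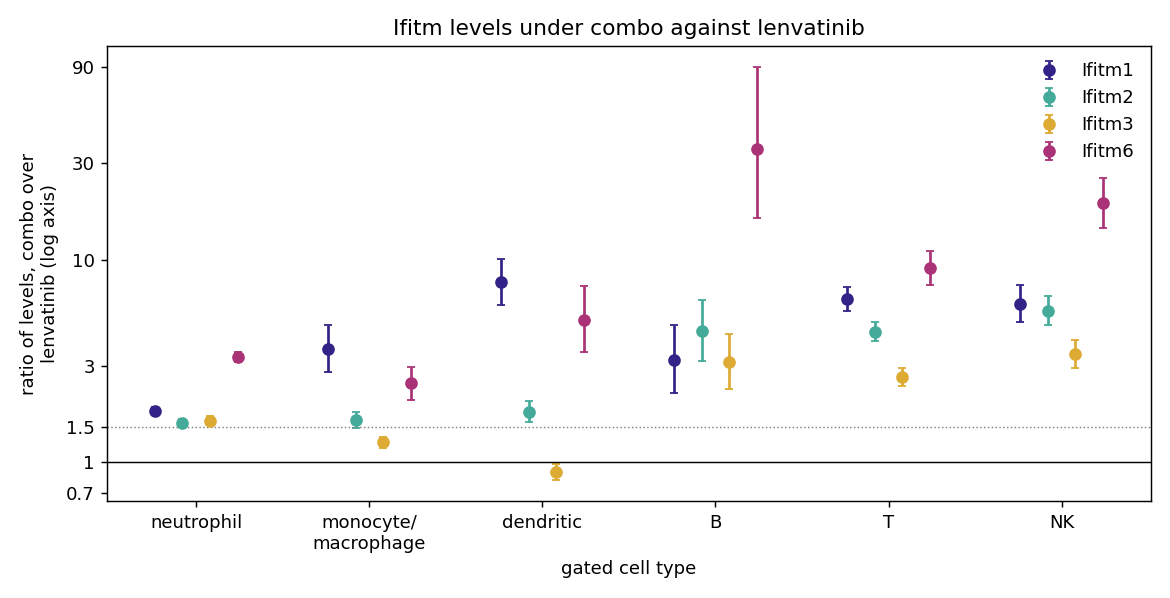
Ratio of the level under combo to the level under lenvatinib (log axis) for each Ifitm member in each gated cell type, with bars for the range that counting error allows, a solid line at 1 and a dotted line at 1.5. Ifitm3 is the lowest member in the T, NK, B, monocyte/macrophage and dendritic gates, and Ifitm6 has the highest ratio in the T, NK, B and neutrophil gates.

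Neutrophil RNA moved with these values. S100a8, an abundant neutrophil alarmin, was 205.2 CPM in T cells under lenvatinib and 1552 under combo, 256.5 and 3753 in NK cells, 180.6 and 5050 in B cells, and 58550 and 125991 in neutrophils. Cells with at least 1 UMI of S100a8 or S100a9 made up 71.3% of T cells under lenvatinib and 99.7% under combo. To place the members beside this background, each of 13 neutrophil genes was expressed as a percent of its own level in the neutrophil gate of the same library. Free RNA from 1 source keeps its genes in 1 ratio, so that these percents are alike for genes that come from it alone. In T cells the list spanned 0.209% (Cxcr2) to 0.553% (Il1r2) under lenvatinib, and the members stood at 0.683% for Ifitm1, 1.5% for Ifitm2, 2.53% for Ifitm3 and 0.782% for Ifitm6. Under combo the list spanned 0.739% to 1.95% in T cells, and the members stood at 2.44%, 4.24%, 4.14% and 2.15% in the same order. All members were thus above all 13 neutrophil genes in T cells of both libraries.

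In NK and B cells under combo the members lay within the range of the neutrophil genes. The list spanned 0.596% to 7.88% in NK cells, with Ifitm1 at 2.29% and Ifitm3 at 4.96%. It spanned 0.936% to 7.82% in B cells, with Ifitm1 at 2.33% and Ifitm3 at 6.02%. A few cells carried most of the neutrophil transcripts there: at 2000 UMIs per cell, the top 1% of cells held 65.8% of the S100a8 UMIs in NK cells and 63.2% in B cells. In an alternative chosen after seeing the data, cells with at least 0.5% of UMIs from S100a8 and S100a9 were left out. This took away 48 of the T cells, 9 of the NK cells and 22 of the B cells under combo, and 18, 19 and 3 under lenvatinib. S100a8 and S100a9 belong to the neutrophil list themselves, and the neutrophil gate was left whole. Leaving these cells out therefore lowers the list percents by construction.

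Without those cells, the lymphocyte gates of the combo library came close to each other. Ifitm1 was 81.4 CPM in T cells, 77.7 in NK cells and 75.3 in B cells. Ifitm2 was 104.4, 97.0 and 87.0 CPM, and Ifitm3 was 72.5, 74.2 and 75.6 CPM. Ifitm6 was 29.9, 28.2 and 24.1 CPM, down from 118.7 in the whole B gate. The neutrophil list then spanned 0.513% to 1.17% of its neutrophil level in T cells, 0.434% to 1.19% in NK cells and 0.414% to 1.57% in B cells. Ifitm1, Ifitm2 and Ifitm3 stood above all 13 genes in each of these gates under combo, at 2.20% to 3.95%. Ifitm6 stood above 13 in T cells, 12 in NK cells and 11 in B cells. The choice of cells by S100a8 and S100a9 partly sets this order. The ratio of combo to lenvatinib was then 6.39 in T cells, 6.74 in NK cells and 3.24 in B cells for Ifitm1, 4.25, 4.94 and 3.07 for Ifitm2, 2.44, 2.72 and 2.03 for Ifitm3, and 7.28, 7.87 and 8.13 for Ifitm6. The Ifitm6 ratio of 8.13 in B cells rested on 7 UMIs under lenvatinib, too few to pass the filter used above.

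**Figure D3:**
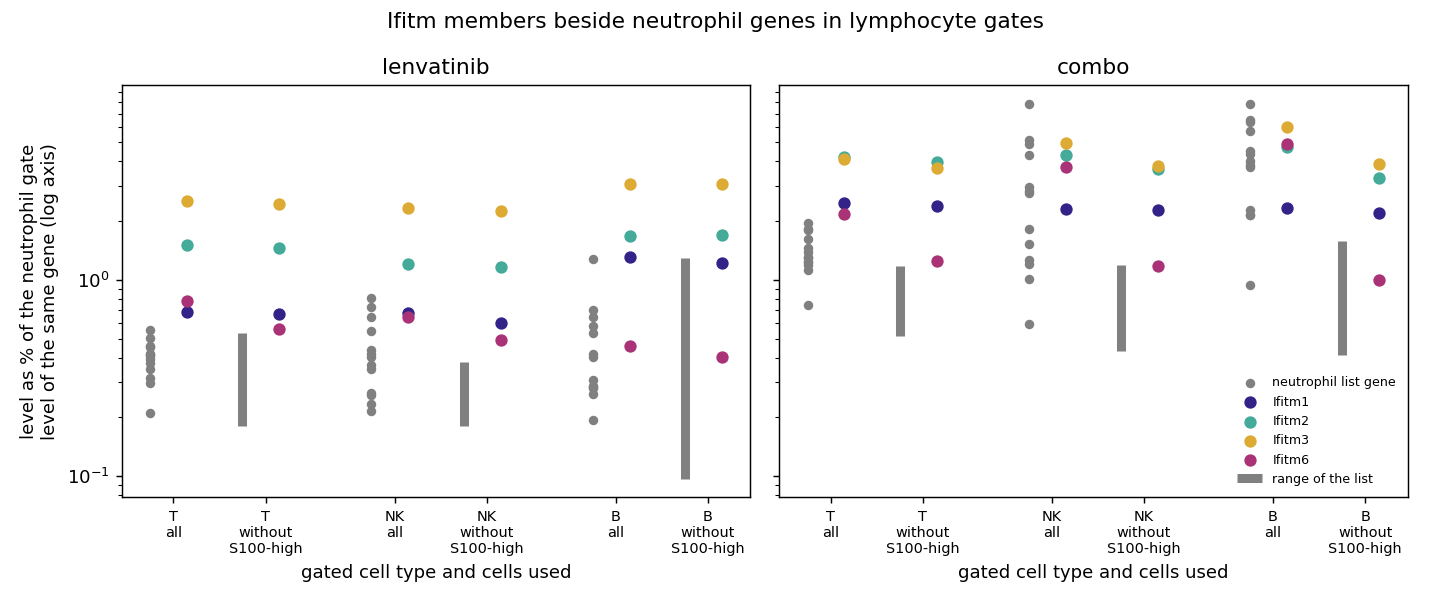
Level in T, NK and B cells as a percent of the level of the same gene in the neutrophil gate of the same library (log axis), for the Ifitm members (colored points) and for 13 neutrophil genes (grey), with all cells of a gate and without cells in which S100a8 and S100a9 make up at least 0.5% of UMIs. In T cells every member lies above the neutrophil genes, and in NK and B cells of the combo library Ifitm1, Ifitm2 and Ifitm3 do so once those cells are left out. S100a8 and S100a9 are themselves among the grey genes, so leaving those cells out lowers the grey values by construction.

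A second measure took the neutrophil-equivalent level, the summed level of S100a8, S100a9 and Retnlg in a gate over the same sum in neutrophils, multiplied by the neutrophil level of the member. T cells of the combo library held 1.18% of the neutrophil sum, and the members were 1.82-fold (Ifitm6) to 3.58-fold (Ifitm2) above their equivalent. In B cells of the combo library, with all cells kept, Ifitm1 was 0.569 of its equivalent, Ifitm2 1.16, Ifitm3 1.47 and Ifitm6 1.20. In NK cells Ifitm1 was 0.810 of its equivalent. After subtraction the T cell ratio of combo to lenvatinib was 6.46 for Ifitm1, 4.09 for Ifitm2, 2.16 for Ifitm3 and 7.10 for Ifitm6. In B cells Ifitm2 came to 0.740 and Ifitm3 to 1.11, and Ifitm1 gave no ratio, so that none of the 3 members counted there stayed past 1.5-fold. In NK cells Ifitm1 gave no ratio, and Ifitm2, Ifitm3 and Ifitm6 were 2.90, 1.78 and 11.97. In monocytes/macrophages the subtraction left 1 member past 1.5-fold, Ifitm6 at 1.66, and Ifitm1 came down to 1.36. In dendritic cells Ifitm1 was 7.06-fold higher under combo after subtraction, a value that rests on the cells without a subset gene described with the dendritic subsets.

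Lyz2, the lysozyme gene of myeloid cells, moved with the lymphocyte values too, and an equivalent formed from it changed the T cell ratio of Ifitm3 most. The monocyte/macrophage gate was 1.35% of kept cells under lenvatinib and 3.72% under combo. Lyz2 was 25.2 CPM in T cells under lenvatinib and 186.0 under combo, which is 0.517% and 1.76% of its monocyte/macrophage level. It was also high in neutrophils, at 2351 and 6194 CPM beside 4878 and 10545 in monocytes/macrophages. Lyz2 therefore does not measure monocyte RNA alone, and the part of each source was not tested. A monocyte-equivalent level was formed from Lyz2 in the same way and added to the neutrophil-equivalent, a sum that counts Lyz2 UMIs of neutrophils as those of monocytes. This alternative was chosen after seeing the data. In T cells of the combo library the sum was 46.1 CPM for Ifitm1, 55.5 for Ifitm2, 64.1 for Ifitm3 and 36.7 for Ifitm6, beside levels of 83.8, 112.0, 81.0 and 51.8. With the sum taken away, the T cell ratio was 6.03 for Ifitm1, 3.68 for Ifitm2, 6.56 for Ifitm6 and 0.986 for Ifitm3, so that the higher Ifitm3 level under combo in T cells was no longer seen. In NK cells of the combo library the sum was above the level for Ifitm1, Ifitm2 and Ifitm3, and in B cells for all 4 members.

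The cells rich in S100a8 and S100a9 weighed heavily in that sum. Leaving them out lowers the sum by construction, because both genes enter the neutrophil-equivalent. Without these cells, the level under combo was 3.46 times the sum for Ifitm1 in T cells, 3.48 times in NK cells and 3.18 times in B cells. For Ifitm3 it was 1.89, 2.14 and 1.78 times, and for Ifitm6 1.54, 1.55 and 1.21 times. With the sum taken away, the ratio of combo to lenvatinib was 6.76, 7.32 and 2.87 for Ifitm1, 4.23, 5.57 and 2.90 for Ifitm2, and 1.84, 2.53 and 1.53 for Ifitm3. The Ifitm6 ratio was 5.92 in T cells and 7.83 in NK cells, and B cells gave none because the lenvatinib level lay below the sum.

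The members' UMIs in T cells could also be read by the number of S100a8 and S100a9 UMIs in the same cell, with every cell thinned to 2000 UMIs. Under combo, Ifitm1 was 14.3 UMIs per 100 cells in the 259 T cells with 0 such UMIs, 15.2 in those with 1 to 2, 16.3 in those with 3 to 9 and 57.5 in the 40 T cells with 10 or more. Under lenvatinib the first 3 values were 2.16, 3.40 and 7.69. Ifitm6 was 3.48, 7.20, 6.16 and 147.5 UMIs per 100 T cells under combo. Ifitm1 was thus nearly level over the first 3 classes under combo, and all members were higher in the last. A cell with 0 of these UMIs after thinning may still have held some before it.

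Detection followed the levels. At 2000 UMIs per cell, at least 1 UMI of any member was found in 90.7% of neutrophils under lenvatinib and 97.2% under combo, in 77.6% and 90.8% of monocytes/macrophages, in 44.2% and 63.3% of dendritic cells, and in 10.4% and 40.4% of T cells. All 4 members were found together in 14.4% of neutrophils under lenvatinib and 34.3% under combo. Ifitm1 was detected in 62.0% of neutrophils under lenvatinib (exact binomial 57.5% to 66.3%) and 73.9% under combo (71.5% to 76.2%). Ifitm6 was detected in 31.3% (27.2% to 35.6%) and 57.1% (54.5% to 59.8%) of neutrophils. In T cells Ifitm1 was detected in 2.33% and 13.7% and Ifitm6 in 1.05% and 6.32%, while S100a8 was detected in 22.7% and 75.6%. Thinning left out 317 T cells and 189 neutrophils under lenvatinib and 107 and 101 under combo, and without thinning Ifitm1 was detected in 6.44% of T cells under lenvatinib at a median of 6019 UMIs. These T cell shares lie below the share for S100a8, so that at this depth they are not read as expression in single cells.

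Neutrophils were not uniform, and Ifitm1 and Ifitm6 were highest in different cells of the gate. Cells with at least 2 UMIs of Ltf, Camp and Ngp, which encode secondary granule proteins made by maturing neutrophils, were 73 of 681 neutrophils (10.7%) under lenvatinib and 652 of 1468 (44.4%) under combo. The remaining cells were split by Ptgs2, the inducible cyclooxygenase, into 411 and 484 Ptgs2-positive and 197 and 332 Ptgs2-negative cells. Cells were not thinned for this split, and the neutrophil gate had medians of 2516 and 4744 UMIs. In T cells Ngp, Camp and Ltf were 21.3, 29.9 and 5.79 CPM under lenvatinib and 175.1, 150.2 and 52.2 under combo. The part of free RNA and depth in the granule-gene class was not tested. Ifitm6 was 2218 CPM in granule-gene cells under lenvatinib and 3292 under combo, against 209.4 and 444.4 in Ptgs2-positive cells and 130.6 and 490.3 in Ptgs2-negative cells. Ifitm1 was lowest in granule-gene cells and highest in Ptgs2-positive cells of both libraries, at 431.1 and 2249 CPM in granule-gene cells, 2886 and 6657 in Ptgs2-positive cells and 1668 and 5204 in Ptgs2-negative cells. Ifitm2 was 809.3 and 2377 CPM, 2384 and 3553 CPM, and 1326 and 2801 CPM in the same subsets. Ifitm3 was the flattest member, at 1460 and 2037 CPM, 1277 and 1873 CPM, and 857.5 and 1658 CPM.

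Every member was higher under combo in each of the 3 subsets. Ifitm1 had the largest ratio in granule-gene cells, at 5.22 (4.56 to 5.99), and Ifitm6 was 1.48 (1.39 to 1.59) there. In Ptgs2-positive cells the ratio was 2.31 for Ifitm1, 1.49 for Ifitm2, 1.47 for Ifitm3 and 2.12 for Ifitm6. In Ptgs2-negative cells it was 3.12, 2.11, 1.93 and 3.75. When the combo subsets were weighted by their share of UMIs under lenvatinib, an alternative chosen after seeing the data, the neutrophil ratio was 2.67 for Ifitm1, 1.80 for Ifitm2, 1.53 for Ifitm3 and 1.68 for Ifitm6. The ratio of Ifitm6 thus moved from 3.31 to 1.68 and that of Ifitm1 from 1.79 to 2.67 once the subset mix was held fixed. The limits of the granule-gene class given above apply to the subset ratios and the weighted ratios.

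**Figure D4:**
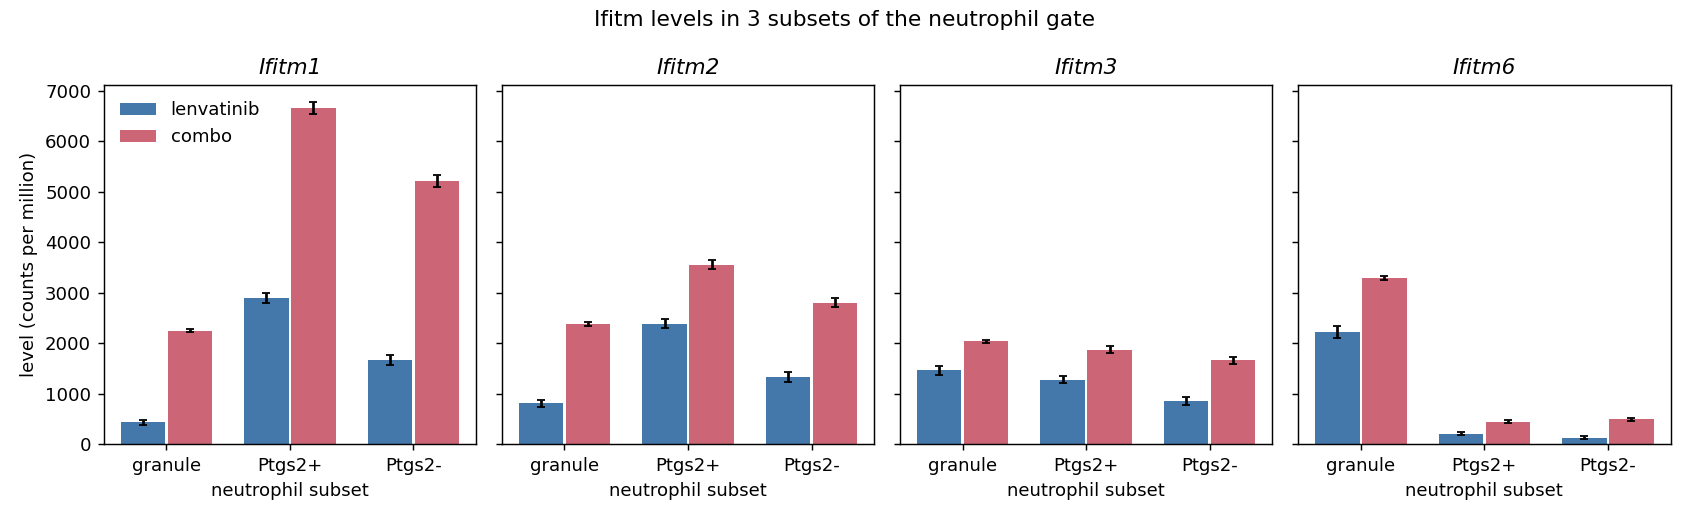
Level of each Ifitm member (CPM, bars from 0, exact Poisson 95% intervals) in granule-gene, Ptgs2-positive and Ptgs2-negative cells of the neutrophil gate under lenvatinib and combo. Ifitm6 is highest in granule-gene cells (2218 and 3292 CPM) and Ifitm1 in Ptgs2-positive cells (2886 and 6657 CPM).

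In the monocyte/macrophage gate, cells were split by C1qa, a complement gene of macrophages, and Ly6c2, a marker of classical monocytes. Ly6c2-positive cells without C1qa, 75 under lenvatinib and 204 under combo, held Ifitm3 at 2464 and 2607 CPM, a ratio of 1.06 (0.977 to 1.15). C1qa-positive cells, 44 and 36, held Ifitm3 at 372.1 and 1805 CPM, a ratio of 4.85 (3.58 to 6.64). Ifitm2 was 1045 and 1512 CPM in Ly6c2-positive cells and 342.2 and 970.7 CPM in C1qa-positive cells. Ifitm6 was 294.0 and 576.8 CPM in Ly6c2-positive cells, and in C1qa-positive cells it rested on 3 UMIs under lenvatinib and 43 under combo. S100a8 was 132.6 CPM in C1qa-positive cells under lenvatinib and 1071 under combo, and its part in these differences was not tested.

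In the dendritic gate Ifitm3 differed by subset in direction. A cell could count in several of the subsets, so their values are not independent of each other. Cells with Cd209a, a gene of type 2 conventional dendritic cells, had Ifitm3 at 1364 CPM under lenvatinib (78 cells) and 711.6 under combo (61 cells), a ratio of 0.522 (0.448 to 0.608). Cells with Siglech, a gene of plasmacytoid dendritic cells, had 385.5 CPM (149 cells) and 209.9 CPM (136 cells), a ratio of 0.544 (0.447 to 0.662). Cells with Xcr1, the chemokine receptor of type 1 conventional dendritic cells, had 392.2 CPM (31 cells) and 584.3 CPM (26 cells), a ratio of 1.49 (1.17 to 1.90). Ifitm2 followed the same order of subsets, at ratios of 0.674 (0.542 to 0.836), 0.997 (0.774 to 1.28) and 2.93 (2.24 to 3.87). Ifitm1 was 85.2 and 175.7 CPM in Cd209a cells, 31.3 and 92.7 in Siglech cells and 10.7 and 90.02 in Xcr1 cells, the last from 6 UMIs under lenvatinib, at ratios of 2.06, 2.96 and 8.38. S100a8 was 122.2 and 603.5 CPM, 125.3 and 3392 CPM, and 116.4 and 485.8 CPM in the same subsets. In Siglech cells of the combo library the neutrophil-equivalent of Ifitm1 was 89.3 CPM, close to the whole level, and the ratio after subtraction was 0.124. In Cd209a and Xcr1 cells it was 17.2 and 13.4 CPM, and the ratios after subtraction were 1.94 and 11.3. Cells with both Ccr7 and Fscn1, genes of mature migratory dendritic cells, numbered 12 and 2, too few for a ratio.

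Most Ifitm1 UMIs of the dendritic gate under combo lay in cells with none of these subset genes. There were 35 such cells under lenvatinib and 50 under combo, and they held 29.1% and 68.5% of the Ifitm1 UMIs of the gate, at 104.5 and 818.3 CPM. The 10 cells with the most Ifitm1 held 53.4% of these UMIs under combo and 59.2% of the 103 UMIs under lenvatinib. S100a8 was 125.4 and 574.5 CPM in the cells without a subset gene, and the neutrophil-equivalent of Ifitm1 under combo was 16.3 CPM. With only the 214 and 167 cells that had a subset gene, an alternative chosen after seeing the data, the dendritic ratio was 4.15 for Ifitm1 (2.94 to 5.92), 1.34 for Ifitm2, 0.782 for Ifitm3 and 7.19 for Ifitm6, and 2.39 for Ifitm1 after subtraction of the neutrophil-equivalent. The identity of the cells without a subset gene was not tested.

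In every T and NK subset the members were higher under combo, though the range of the ratio reached below 1 for Ifitm3 and Ifitm6 in Foxp3-positive T cells. In T cells with Cd8a but without Cd4 and Foxp3, Ifitm1 was 11.1 CPM under lenvatinib and 78.2 under combo, a ratio of 7.07 (5.87 to 8.55). In T cells with Cd4 but without Cd8a and Foxp3, it was 23.0 and 70.3 CPM, a ratio of 3.06 (1.92 to 4.97). In cells with Mki67, a gene of dividing cells, it was 10.3 and 134.8 CPM, a ratio of 13.1 (9.53 to 18.2), in 935 and 209 cells. Ifitm2 in Mki67-positive T cells was 22.8 and 186.7 CPM, a ratio of 8.20 (6.48 to 10.4). S100a8 was 636.2 CPM in these cells under combo, against 1022 in Cd8a-positive T cells, and 105.6 CPM in the Mki67-positive cells under lenvatinib. The part of neutrophil RNA in the differences between libraries in these subsets was not tested. Foxp3-positive T cells, 388 and 57, had Ifitm1 at 14.9 and 84.3 CPM and Ifitm3 at 37.6 and 68.7 CPM. Among NK cells, Ifitm1 was 12.2 and 77.6 CPM in cells with Klra8, a Ly49 receptor gene, and 11.3 and 64.1 CPM in cells with Itga1, an integrin of tissue-resident cells.

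The members differed in how they went with interferon-stimulated transcripts. Of 16 such genes, 15 passed the filter in T cells and none was at least 1.5-fold higher under combo, while 11 were at least 1.5-fold lower, beside 12.3% of all tested genes. The counts lower were 12 of 15 in NK cells (11.8% of genes), 10 of 15 in neutrophils (48.8%), 4 of 15 in monocytes/macrophages (22.8%), 4 of 15 in dendritic cells (14%) and 0 of 9 in B cells (39.9%). The counts higher were 5 of 15 in dendritic cells (6.07% of genes), 1 of 9 in B cells (2.36%) and 0 elsewhere. The gene in B cells was Irf7, and those in dendritic cells were Ifit1, Ifit2, Rsad2, Cmpk2 and Rtp4. The dendritic values rested on few UMIs under lenvatinib, from 22 for Rtp4 to 94 for Ifit2. Isg15, a ubiquitin-like modifier, was 433.3 CPM in neutrophils under lenvatinib and 151.0 under combo, and 82.3 and 54.2 in T cells. In T and NK cells the Ifitm members were thus at least 1.5-fold higher under combo. Most of the interferon genes that passed the filter were at least 1.5-fold lower in these 2 gates. The neutrophil counts went the same way, but 48.8% of all tested genes were lower there too. In that gate the median ratio was 0.516 for the interferon genes and 0.675 for all tested genes, and nothing is read from the neutrophil count.

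Within each library, cells thinned to 2000 UMIs were parted by whether they held at least 1 UMI of 9 interferon-stimulated genes. Ifitm3 was higher in the positive cells in 12 of 12 classes of gate and library, with ratios from 1.11 to 3.42, and the range lay above 1 in 10. In neutrophils Ifitm3 was 1702 CPM in positive and 700.0 in negative cells under lenvatinib, and 2673 and 1345 under combo. In NK cells under lenvatinib it was 66.3 and 19.4 CPM. Ifitm1 had a range above 1 in 4 of 12 classes, both neutrophil and both monocyte/macrophage, Ifitm2 in 1, and Ifitm6 in none of 11. Ifitm6 in neutrophils under combo was 1398 CPM in positive and 1542 in negative cells. S100a8, which is not on the interferon list, had a range above 1 in 2 of 12 classes and below 1 in 6. A range clear of 1 was thus not particular to interferon genes, and no share over all genes is given for this split. These are values over cells of 1 library each.

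**Figure D5:**
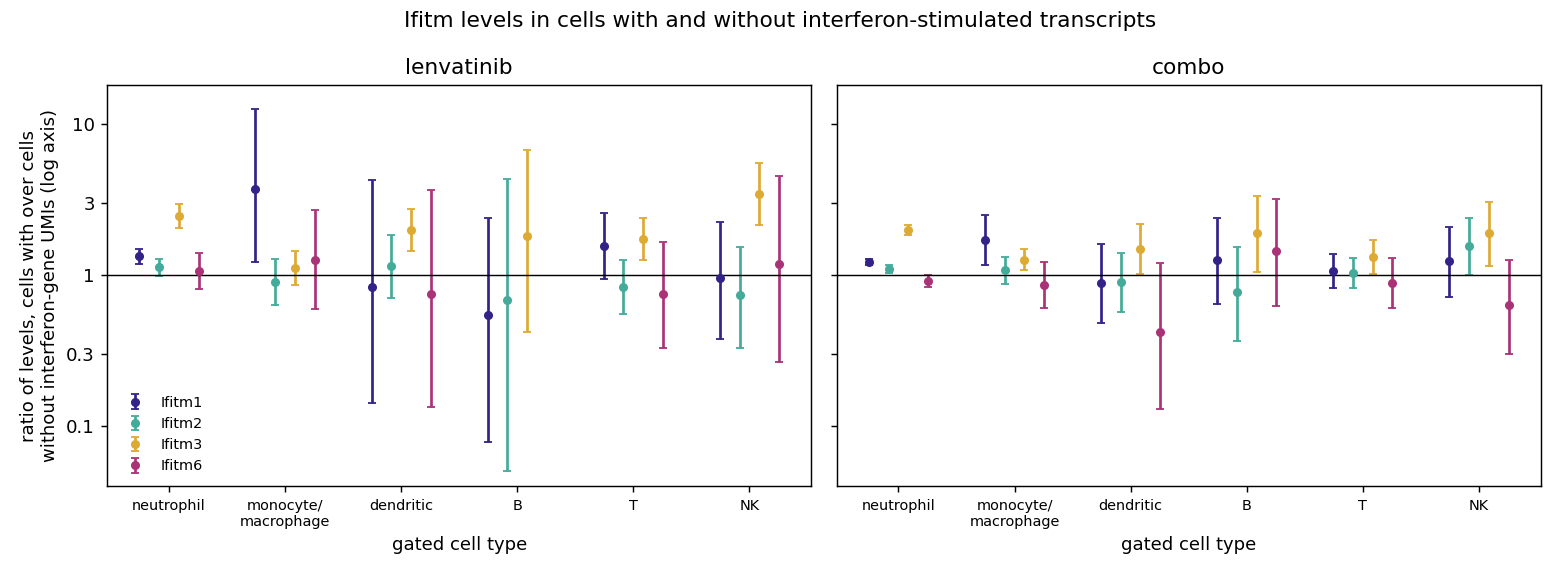
Ratio of the level of each Ifitm member in cells with at least 1 UMI of 9 interferon-stimulated genes to the level in cells with none (log axis), by gated cell type and library, at 2000 UMIs per cell, with bars for the range that counting error allows. Ifitm3 lies above 1 in all 12 classes, from 1.11 to 3.42, and Ifitm6 in B cells under lenvatinib is not drawn because it had 0 UMIs in positive cells.

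Of the rest of the family, Ifitm10 had another pattern over the gates, Ifitm5 was highest in neutrophils at low counts, and Ifitm7 was near the floor. Ifitm10 was highest in NK cells (44.3 CPM under lenvatinib, 45.1 under combo) and next in T cells (33.0 and 32.4 CPM), and it was between 2.00 and 7.64 CPM in the other gates. Its ratio was 1.02 in NK cells and 0.981 in T cells. Ifitm5 was 14.7 CPM in neutrophils under lenvatinib (34 UMIs) and 3.68 under combo (39 UMIs), and it had at most 5 UMIs in any other gate. Ifitm7 had at most 5 UMIs in any gate.

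Of 7 genes whose products are known to bind or modify Ifitm proteins, Cd9 was the one at least 1.5-fold higher under combo in the lymphocyte gates. Cd9, a tetraspanin, was at least 1.5-fold higher under combo in T, NK and B cells, at ratios of 1.78, 1.51 and 1.83, and at least 1.5-fold lower in monocytes/macrophages, at 0.525. Its level was 827.3 and 769.0 CPM in neutrophils, and in B cells of the combo library 31.4 of 34.7 CPM equalled the neutrophil-equivalent. After subtraction the Cd9 ratio was 1.52 in T cells, 1.37 in NK cells and 0.196 in B cells. Cd81, another tetraspanin, was higher in dendritic cells, at 2.46, and lower in T cells and monocytes/macrophages, at 0.498 and 0.248. Zdhhc20, which palmitoylates Ifitm3, was lower in T, NK, B and neutrophil cells, at 0.604, 0.636, 0.474 and 0.474. Vapa, which Ifitm3 binds, was between 0.925 and 1.16 in all 6 gates, Zmpste24 was between 0.701 and 1.16, and Nedd4, a ubiquitin ligase, was lower in B cells and monocytes/macrophages, at 0.198 and 0.276.

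Genes with the most similar pattern were ranked by the Pearson correlation of log2(CPM + 1) over the 12 classes of gate and library, which share libraries, depth and free RNA, so the values are a description. Ifitm1 was closest to Abtb1 (0.966), Mapk13, Dhrs9, Mrgpra2b and Nfe2. Ifitm2 was closest to Wfdc17 (0.978), Alox5ap, Id1, Ifitm3 and Nhsl2. Ifitm3 was closest to App (0.989), Lrrc25, Alox5ap, Cd300c2 and Csf2ra, and Ifitm6 to Cd177 (0.965), Hp, Mcemp1, Mapk13 and Chil3. Between members the correlation was 0.972 for Ifitm2 with Ifitm3 and 0.772 for Ifitm1 with Ifitm3, and it was negative for Ifitm10 with each of them, from -0.60 for Ifitm3 to -0.33 for Ifitm6.

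Cells that passed more than 1 gate were left out of these levels, and they carried a large part of the members' UMIs. They made up 16.4% of kept cells under lenvatinib and 23.0% under combo. Of all Ifitm1 UMIs, 34.7% and 38.2% were in such cells, against 47.3% and 51.0% in the neutrophil gate. For Ifitm3 the shares were 47.2% and 51.1% in cells of several gates and 14.8% and 26.7% in the neutrophil gate.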

How the data were processed

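Live CD45+ cells of mouse liver tumors were measured by single-cell RNA sequencing (10x 3′ v3, UMIs), with 1 library per treatment. The values deposited are counts of UMIs for each gene in each barcode, not normalized, from reads mapped to mm10. The submitters' notes name Cell Ranger 5.0.1 and the file headers 6.0.1. No reads were reprocessed.

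Genes were matched by symbol. Cells with at most 6000 genes and 25% mitochondrial UMIs were gated as described, counts were summed per gate and library, and CPM and intervals computed in Python 3.11.15 (numpy 2.4.6, scipy 1.17.1). Genes tested for a background share had at least 10 counts in each library and 10 CPM in 1. Doublets, called on kept cells by Scrublet in scanpy 1.11.5 (4.46% and 2.76%), were kept in the main values. The ratio, thinning and correlation steps were tested on simulated data with known answers. Gene positions are GENCODE annotation of mm10, and promoters are RefSeq. Members and lists were chosen with earlier results of these data known. Named genes are the members, gate genes, listed genes and, per member, the 5 most similar genes with at least 50 CPM in 1 class. Mx1, on the interferon list, was not analysed here. Intervals are exact Poisson or Clopper-Pearson at 95%, and UMI intervals do not cover variation between mice.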

Additional observations from a re-analysis of the deposited data

Results flagged for a closer look

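Ifitm3 in dendritic cells differed from the other gates in direction. Its ratio of combo to lenvatinib was 0.893, where the T, NK, B and neutrophil gates were at least 1.5-fold higher under combo, at 2.63, 3.43, 3.14 and 1.61. The difference between gates was not tested, since each treatment is 1 library. The dendritic value stood at 1.23 when cells of several gates were kept.

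Cells in no gate, 2535 under lenvatinib and 1449 under combo, entered no comparison and still held member UMIs. Under lenvatinib Ifitm1 was 84.2 CPM, Ifitm2 136.5, Ifitm3 213.7 and Ifitm6 120.8. Under combo Ifitm1 was 367.3 CPM, Ifitm2 575.8, Ifitm3 630.9 and Ifitm6 879.3. S100a8 in these cells was 7948 CPM and 37672 CPM. Their median depth was 2320 and 3632 UMIs, below the medians of all kept cells, and the part of neutrophils without a Csf3r UMI was not tested.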

How the results depend on the processing

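The count of members past 1.5-fold stayed within 1.5 times the main count in all 6 gates under other cell filters, doublet removal, other CPM totals, inclusive gates, 2-UMI gates, cell means and thinning, but single members fell under 1.5-fold. Of 22 members past it, 19 were left with thinning (Ifitm2 in monocytes/macrophages at 1.21 and dendritic cells at 1.34, Ifitm3 in neutrophils at 1.47), 20 with cell means (Ifitm2 at 1.48 and 1.42 in the former 2 gates) and 21 with 2-UMI gates (Ifitm2 in neutrophils at 1.42). It was also lost for Ifitm2 in dendritic cells with a subset gene, at 1.34. The count moved in monocytes/macrophages to 1 (main 3) with the neutrophil-equivalent level subtracted, and in neutrophils to 1 (main 4) at a 2-fold limit. Subtraction turned the B gate ratio of Ifitm2 to 0.740 and took that of Ifitm3 to 1.11 (main 3.14), and it gave values below 0 and hence no ratio for Ifitm1 in NK and B cells under combo. Among T cell ratios the range over 14 alternatives was 4.32 to 8.35 for Ifitm1, 3.40 to 5.34 for Ifitm2, 0.986 to 4.13 for Ifitm3 and 3.60 to 10.8 for Ifitm6. The value of 0.986 came with the neutrophil- and monocyte-equivalent levels both subtracted, an alternative chosen after seeing the data. In NK cells that kept no S100a8 or S100a9 UMI after thinning, also chosen after seeing the data, Ifitm3 was 1.18. Cells with no S100a8 or S100a9 UMI numbered at most 13 per gate under combo, under the minimum of 50, so they entered no count. The 13 such T cells gave ratios of 10.2 (2.25 to 32.6) for Ifitm1, 6.55 (2.09 to 16.4) for Ifitm2 and 4.15 (1.20 to 10.98) for Ifitm3, and 0 UMIs of Ifitm6. The 10 B cells gave 12.96 (1.86 to 72.5), 29.1 (7.02 to 121) and 19.4 (6.35 to 57.3) for the first 3. These B cell ratios rested on 4, 9 and 12 UMIs under combo. No paired analysis was possible because each treatment has 1 library and the labels carry no replicate numbers, and no replicate could be left out.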
